A study of Mus musculus with 48 samples.

Results

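The 40 genes described here encode antioxidant, glutathione and metallothionein proteins of mouse muscle. They were chosen by name, out of 54532 genes in the count table, and were followed across dose, sex and genotype. They fall into 7 roles: the regulators NRF2 (Nfe2l2) and KEAP1 (Keap1), 9 NRF2 target enzymes, 5 mitochondrial antioxidants, 11 other antioxidant enzymes, 9 glutathione transferases, 2 metallothioneins and 2 ferritins. All 40 were among the 15583 genes that passed the filter on low counts.

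RNA-seq libraries of the gastrocnemius, a calf muscle, came from 48 mice given perfluorooctane sulfonate (PFOS), a persistent fluorinated surfactant, by oral gavage for 21 days. The doses were 10, 1 and 0 mg/kg/day, with 15, 16 and 17 mice. Both sexes of 2 genotypes were treated: hCYP2B6-Tg mice, whose label names a transgene of the human drug-metabolising enzyme CYP2B6, and Cyp2b-null mice, whose label names a loss of the mouse Cyp2b genes. Sex and genotype make 4 strata, each with 3 to 5 mice at each dose, and mice are called here by their number within a group. The sources used here do not give age, strain background, the promoter of the transgene or whether the transgenic mice also lack mouse Cyp2b genes.

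NRF2 is a transcription factor that KEAP1 keeps at a low level by directing it to degradation. When oxidants or electrophiles modify KEAP1, NRF2 accumulates and binds antioxidant response elements (AREs) near genes of glutathione synthesis, thioredoxin recycling and detoxification. Metallothioneins are small cysteine-rich proteins that bind zinc and copper, and the factor MTF1 drives their genes through metal response elements (MREs). Muscle mitochondria release superoxide, which manganese superoxide dismutase (Sod2) turns into hydrogen peroxide, and mitochondrial peroxiredoxins and thioredoxin then remove it.

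Total counts per library ran between 1.16e+07 and 1.99e+07. The labels' extraction text names liver although the tissue field names muscle: the 6 fast muscle markers summed to at least 63124 CPM (counts scaled to a common library size of 1e+06) in every library, and the 7 liver markers to at most 24.0 CPM outside 1 library, mouse 2 of the Cyp2b-null males at 1 mg/kg/day, which held 27859 counts of Alb. Mouse Cyp2b genes had at most 10 counts in any library of either genotype, so they do not check the genotype labels. Another 5 libraries, 4 of them at 10 mg/kg/day, held 41 to 790 counts of Glycam1, a lymph node gene. All 6 fast muscle markers fell at 10 against 0 mg/kg/day, and none of 5 slow muscle markers changed. Adipocyte markers rose (8 of 9 tested), and their summed level had a lowest, median and highest value of 121, 601 and 1981 CPM at 10 mg/kg/day and 108.96, 183.8 and 457 CPM at 0, with Lep at 0 counts in 6 libraries. Red blood cell markers fell (5 of 5 tested), with sums of 21.1, 40.6 and 99.4 CPM at 10 mg/kg/day and 35.3, 75.8 and 187.6 CPM at 0. Macrophage markers summed to 18.0, 40.7 and 55.7 CPM at 10 mg/kg/day and 7.63, 28.9 and 64.4 CPM at 0, and 3 of 7 rose. In the same comparison 24.8% of all genes tested rose and 22.5% fell. In bulk muscle, fewer cells of a type and less RNA per cell cannot be told apart.

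At 10 against 0 mg/kg/day, averaged over the 4 strata, 21 of the 40 genes rose and 6 fell. Both metallothioneins, the secreted glutathione peroxidase Gpx3 and the transferases Gstm1, Gstm2 and Mgst1 were among those that rose, and Sod2, Gsta4, Prdx2 and Prdx3 among those that fell. Of all genes tested, 24.8% rose and 22.5% fell, 47.3% together, and of the 40 genes 67.5% changed. The median log2 fold change was 0.26 over the 40 genes and 0.04 over all genes. The CPM ranges of all mice at 10 and at 0 mg/kg/day did not overlap for 2 of the 40, Gstm1 (higher at 10) and Sod2 (lower at 10), against 1.01% of all genes. For overlaps within a single stratum no share of all genes is given. Here and below a gene changed if its adjusted p in edgeR was under 0.05, fold changes are log2 values with standard errors, and 3 levels given together are the lowest, median and highest of the mice at that dose.

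**Figure D1:**
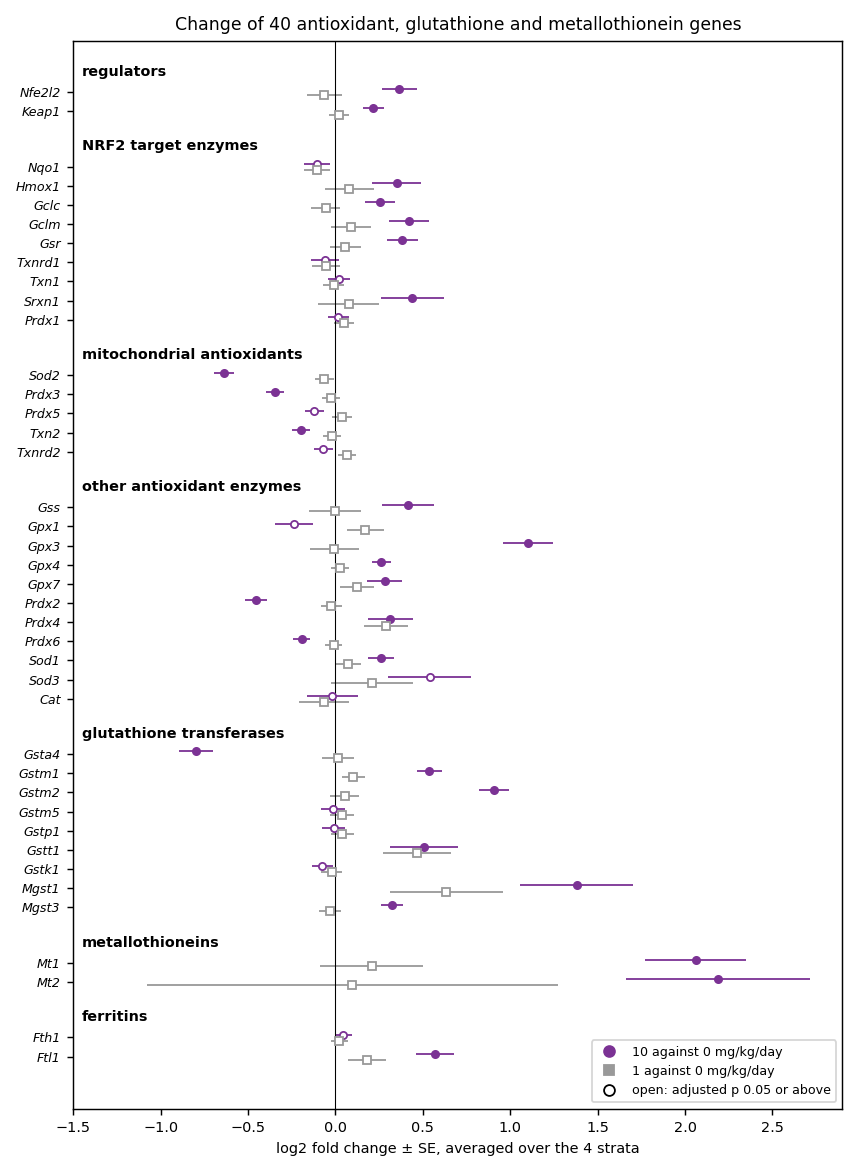
Change of each of the 40 genes, grouped by role: the x axis is the log2 fold change with its standard error, averaged over the 4 strata, at 10 against 0 mg/kg/day (circles) and at 1 against 0 mg/kg/day (squares), with open symbols where the adjusted p was 0.05 or more. At 10 mg/kg/day 21 genes pass the test right of 0 and 6 left of it, and at 1 mg/kg/day none does.

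The metallothioneins had the largest log2 fold changes of the 40. Mt1 lies on chromosome 8 at 94179082 to 94180327 (GRCm38) and Mt2 beside it at 94172664 to 94173568. Mt1 had 15.7, 66.8, 31.0 and 19.3 CPM in hCYP2B6-Tg females at 10 mg/kg/day, against 7.61, 4.74, 6.40 and 5.04 CPM at 0. It had 9.52, 20.999, 22.6 and 11.2 CPM in hCYP2B6-Tg males at 10 mg/kg/day, against 6.99, 4.83, 3.34, 3.51 and 4.74 CPM at 0. In neither transgenic stratum did the mice at 10 and at 0 mg/kg/day overlap. Mt1 had 31.0, 11.4, 128.8 and 8.06 CPM in Cyp2b-null females at 10 mg/kg/day, against 5.85, 7.28, 17.5 and 8.24 CPM at 0, and these mice overlapped. It had 19.4, 14.9 and 33.8 CPM in Cyp2b-null males at 10 mg/kg/day, against 9.39, 4.60, 8.31 and 4.31 CPM at 0, with no overlap. Averaged over strata, Mt1 rose by 2.06 ± 0.29 (adjusted p = 2.64e-07).

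The rise of Mt1 passed the test in each of the 4 strata. The log2 fold change was 2.48 ± 0.59 in hCYP2B6-Tg females, 1.78 ± 0.55 in hCYP2B6-Tg males, 2.22 ± 0.57 in Cyp2b-null females and 1.77 ± 0.60 in Cyp2b-null males. The highest Mt1 level was that of mouse 3 of the Cyp2b-null females at 10 mg/kg/day, a library with Glycam1 counts. Without this mouse the value in Cyp2b-null females was 0.80 ± 0.47 (adjusted p = 0.371). The call also ended in 5 of 7 fits that left out 1 library of the Cyp2b-null males (adjusted p between 0.0548 and 0.229) and in 3 of 9 that left out 1 of the hCYP2B6-Tg males (between 0.0547 and 0.0846). Without all 6 libraries that held Alb or Glycam1 the average was 1.61 ± 0.25 (adjusted p = 4.45e-06), and with the adipocyte markers as a covariate it was 1.80 ± 0.38 (adjusted p = 0.000277). At 1 mg/kg/day Mt1 had 2.67, 7.22 and 22.0 CPM, a range that overlaps the 3.34, 5.85 and 17.5 CPM at 0.

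Mt2 was the lowest of the 40 per length at 0 mg/kg/day, with a mean of 0.321 CPM per kilobase. At 10 mg/kg/day its mean was 1.97, above the 1.80 of Prdx4. The counts of Mt2 ran between 0 and 154 per library. It had 0.0765, 0.432 and 7.64 CPM at 10 mg/kg/day and 0, 0.0848 and 0.807 CPM at 0, so the doses overlapped. Mt2 rose by 2.19 ± 0.52 (adjusted p = 0.000676). Without the 6 libraries it was 1.33 ± 0.55 (adjusted p = 0.0512), and with the red blood cell markers as a covariate 1.29 ± 0.64 (adjusted p = 0.113). Mt2 lies over the opposite-strand gene Gm45774, and whether counting used strand is not given in the labels, so reads of the pair cannot be told apart.

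The promoter windows of both metallothioneins are shown because these neighbours moved together. They are from RefSeq (GRCm38.p6, plus strand) and run from 250 bases before the start site to 30 after it, at chr8:94178839-94179118 for Mt1 and chr8:94172368-94172647 for Mt2. Capitals mark matches on either strand to the MRE core, TGCACNC or TGCGCNC.
Mt1: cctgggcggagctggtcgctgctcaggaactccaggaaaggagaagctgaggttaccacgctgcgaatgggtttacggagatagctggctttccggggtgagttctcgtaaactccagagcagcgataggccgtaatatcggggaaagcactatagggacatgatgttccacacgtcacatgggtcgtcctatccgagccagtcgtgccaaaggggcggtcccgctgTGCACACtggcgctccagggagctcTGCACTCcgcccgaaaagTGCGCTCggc
Mt2: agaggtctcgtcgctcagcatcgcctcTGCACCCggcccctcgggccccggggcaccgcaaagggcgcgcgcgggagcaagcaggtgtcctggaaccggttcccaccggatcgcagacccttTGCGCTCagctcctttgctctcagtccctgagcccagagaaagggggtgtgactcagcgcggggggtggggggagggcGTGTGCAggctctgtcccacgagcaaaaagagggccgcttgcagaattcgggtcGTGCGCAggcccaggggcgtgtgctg
The Mt1 window held 3 matches, all on the strand of the gene, at -23, 3 and 21 from the RefSeq start site used. The Mt2 window held 4, at -223 and -128 on the strand of the gene and at -50 and 5 on the other. Sequence beyond the windows was not searched, so matches there are not counted, and positions hold for these start sites alone. RefSeq gave 42 windows of 300 bases for 34 of the 40 genes, some with several start sites, and none for Hmox1, Gclc, Gsr, Prdx6, Sod3 and Gsta4. An MRE core stood in 12 of the 42 windows (28.6%), which belong to 11 genes, and in 25.7% of all 32851 windows. A match is a run of letters and does not show that a factor binds there.

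Among 15 further genes of metal handling, 2 rose and 4 fell, so 40% changed, against 47.3% of all genes. Mtf1 had a log2 difference of -0.09 ± 0.05 (adjusted p = 0.129). Slc39a14, an importer of zinc and iron, had 8.25, 14.3 and 60.6 CPM at 10 mg/kg/day and 9.53, 11.7 and 15.4 CPM at 0, and rose by 0.51 ± 0.16 (adjusted p = 0.00797). Transferrin receptor (Tfrc), through which cells take up iron, had 13.1, 64.2 and 169 CPM at 10 mg/kg/day and 113.9, 186 and 284 CPM at 0, and fell by 1.47 ± 0.18 (adjusted p = 1.30e-08). The copper importer Slc31a1 fell by 0.23 ± 0.06 (adjusted p = 0.00108).

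Of the ferritin chains, which store iron, the light chain rose and the heavy chain did not pass the test. Ftl1 had 47.9, 73.5 and 105.1 CPM at 10 mg/kg/day and 37.7, 51.4 and 66.0 CPM at 0, and rose by 0.57 ± 0.11 (adjusted p = 4.21e-05). Adjusted for the adipocyte markers, Ftl1 was at 0.30 ± 0.12 (adjusted p = 0.043). Fth1, the most abundant of the 40 per length, averaged 1635 CPM per kilobase at 10 mg/kg/day and 1609 at 0. It had 1174, 1414 and 1706 CPM at 10 mg/kg/day and 1152, 1405 and 1859 CPM at 0, ranges that nearly coincide, and a log2 difference of 0.04 ± 0.05 (adjusted p = 0.482). On library totals without scaling factors Fth1 was at 0.26 ± 0.04 (adjusted p = 2.06e-07). Ferritin genes have many processed copies, so reads may be split among them.

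NRF2 and its inhibitor KEAP1 both rose. Nfe2l2 had 33.2, 43.1 and 112 CPM at 10 mg/kg/day and 29.7, 35.6 and 44.5 CPM at 0, and rose by 0.36 ± 0.10 (adjusted p = 0.00285). Keap1 had 76.2, 91.7 and 120.3 CPM at 10 mg/kg/day and 64.7, 78.6 and 93.9 CPM at 0, and rose by 0.22 ± 0.06 (adjusted p = 0.00192). Nfe2l2 had 50.7, 50.9 and 50.9 CPM in Cyp2b-null males at 10 mg/kg/day, against 34.9, 31.9, 38.0 and 32.6 CPM at 0. It had 43.7, 43.8, 43.1 and 60.1 CPM in hCYP2B6-Tg males at 10 mg/kg/day, against 31.5, 34.6, 35.6, 29.7 and 42.0 CPM at 0. In both male strata the doses did not overlap. Nfe2l2 had 35.2, 33.6, 36.8 and 40.3 CPM in Cyp2b-null females at 10 mg/kg/day, against 33.2, 36.1, 33.7 and 44.5 CPM at 0, which overlap. The log2 fold change of Nfe2l2 was above 0 in 3 strata and below 0 in 1, and it passed the test in none of them. Leaving out 1 library gave calls of Nfe2l2 as higher in the transgenic strata. In hCYP2B6-Tg females it passed without treated mouse 1 (adjusted p = 0.0167), 3 (adjusted p = 0.0434) or 4 (adjusted p = 0.0122). In hCYP2B6-Tg males it passed without mouse 5 at 0 (adjusted p = 0.0496). Keap1 passed in 1 stratum, Cyp2b-null males, and that call ended without treated mouse 3 (adjusted p = 0.0891). With the red blood cell markers as a covariate Keap1 was at 0.10 ± 0.06 (adjusted p = 0.21).

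A single mouse held the highest level of 6 genes of this pathway over all 48 libraries. It was mouse 2 of the hCYP2B6-Tg females at 10 mg/kg/day. Nfe2l2 had 34.4, 112, 41.7 and 33.2 CPM in hCYP2B6-Tg females at 10 mg/kg/day, against 39.6, 41.4, 42.9 and 37.9 CPM at 0, the second of the 4 treated values being this mouse. Gclm, the modifier subunit of the enzyme that starts glutathione synthesis, had 23.8, 73.1, 28.0 and 18.7 CPM in hCYP2B6-Tg females at 10 mg/kg/day, against 20.3, 20.0, 18.3 and 19.7 CPM at 0. Srxn1, sulfiredoxin, which repairs overoxidised peroxiredoxins, had 24.4, 81.3, 18.2 and 24.5 CPM in hCYP2B6-Tg females at 10 mg/kg/day, against 19.9, 19.0, 23.1 and 22.4 CPM at 0. For Keap1, Hmox1 and Gsr the highest levels, also of that mouse, were 120.3, 18.6 and 52.7 CPM. Its adipocyte marker sum was 178.99 CPM, the lowest of its group, whose other mice had 601, 1981 and 712 CPM. Without it the averages were 0.21 ± 0.06 (adjusted p = 0.00141) for Nfe2l2 and 0.27 ± 0.08 (adjusted p = 0.00342) for Gclm. Hmox1 was at 0.23 ± 0.12 (adjusted p = 0.127) and Srxn1 at 0.26 ± 0.15 (adjusted p = 0.155).

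**Figure D2:**
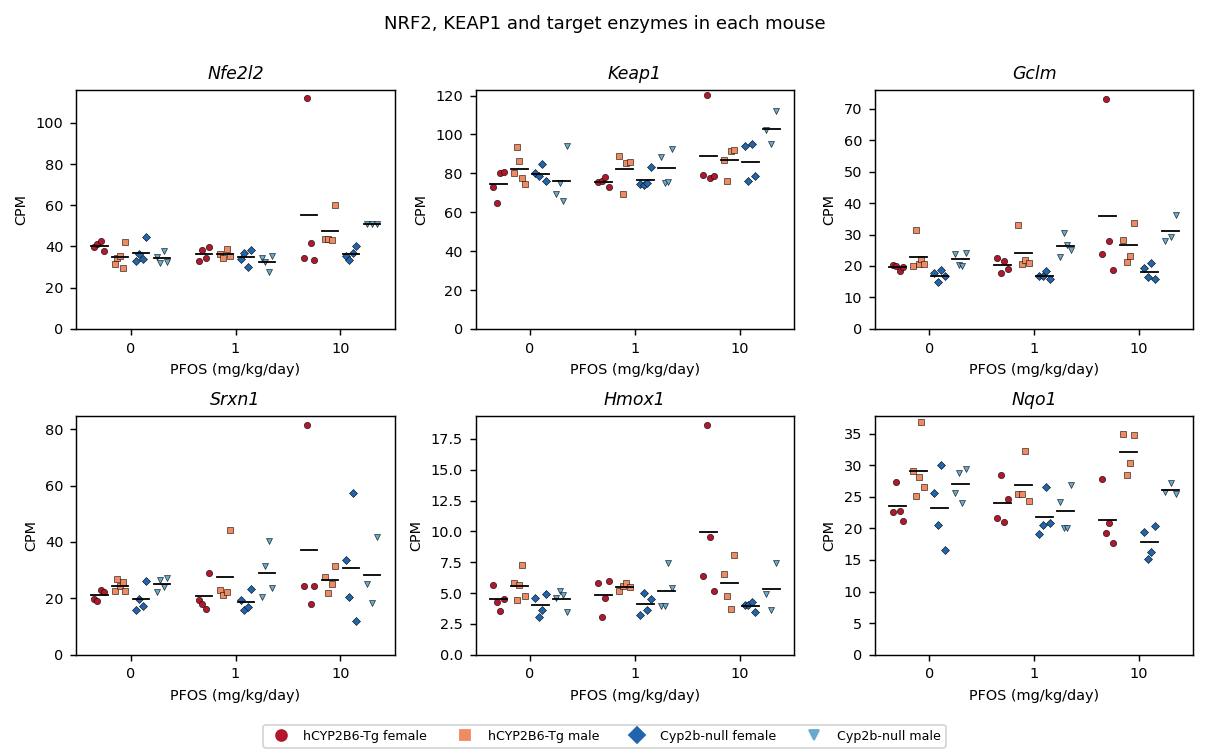
Level of Nfe2l2, Keap1 and 4 NRF2 target enzymes in each mouse, in CPM on a linear axis, by dose in mg/kg/day and stratum (colour and symbol), with short lines at group means. One hCYP2B6-Tg female at 10 mg/kg/day is the highest point for every gene shown except Nqo1.

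Of the 9 NRF2 target enzymes, 5 rose and none fell (55.6% changed, against 47.3% of all genes). Gclm had 15.9, 23.8 and 73.1 CPM at 10 mg/kg/day and 14.8, 20.1 and 31.3 CPM at 0, and rose by 0.42 ± 0.11 (adjusted p = 0.00253). Its catalytic partner Gclc had 13.4, 23.0 and 36.1 CPM at 10 mg/kg/day and 15.6, 17.8 and 23.4 CPM at 0, and rose by 0.26 ± 0.09 (adjusted p = 0.0128). Both subunits overlapped between the doses. Glutathione reductase (Gsr), which returns oxidised glutathione to its reduced form, had 19.4, 32.6 and 52.7 CPM at 10 mg/kg/day and 21.3, 24.2 and 29.2 CPM at 0, and rose by 0.38 ± 0.09 (adjusted p = 0.000539). Srxn1 rose by 0.44 ± 0.18 (adjusted p = 0.0391). Haem oxygenase Hmox1 had 3.47, 4.97 and 18.6 CPM at 10 mg/kg/day and 3.09, 4.63 and 7.28 CPM at 0, and rose by 0.35 ± 0.14 (adjusted p = 0.0377). The calls of Srxn1 and Hmox1 ended in 10 and 11 of 48 fits that left out 1 library. They also ended with no filter on low counts (adjusted p = 0.0857 and adjusted p = 0.0564), with the red blood cell covariate (adjusted p = 0.403 and adjusted p = 0.0793) and without the 6 libraries (adjusted p = 0.211 and adjusted p = 0.0534). With the adipocyte markers as a covariate Gclc was at 0.22 ± 0.11 (adjusted p = 0.115), Srxn1 at 0.53 ± 0.23 (adjusted p = 0.0682) and Hmox1 at 0.38 ± 0.17 (adjusted p = 0.0816).

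The other 4 NRF2 target enzymes did not pass the test. The quinone reductase Nqo1 had 15.1, 25.5 and 34.9 CPM at 10 mg/kg/day and 16.6, 25.6 and 36.8 CPM at 0, a log2 difference of -0.11 ± 0.07 (adjusted p = 0.251). Thioredoxin reductase Txnrd1 was at -0.06 ± 0.08 (adjusted p = 0.582), thioredoxin Txn1 at 0.02 ± 0.06 (adjusted p = 0.811) and peroxiredoxin Prdx1 at 0.02 ± 0.06 (adjusted p = 0.836). On unscaled library totals Txn1 and Prdx1 did pass, at 0.25 ± 0.07 (adjusted p = 0.00137) and 0.24 ± 0.06 (adjusted p = 0.000485). Within strata, Hmox1, Gclc, Gclm and Gsr passed in hCYP2B6-Tg females and no NRF2 target enzyme passed in the other 3. Without mouse 2 of the treated hCYP2B6-Tg females, Hmox1 in that stratum was at 0.65 ± 0.25 (adjusted p = 0.0697), Gclm at 0.27 ± 0.16 (adjusted p = 0.258) and Gsr at 0.28 ± 0.17 (adjusted p = 0.271). None of the 4 passed a test of the difference between sexes or genotypes in the response. Leaving out 1 library also gave calls. Nqo1 passed as lower in Cyp2b-null females without mouse 4 at 0 (-0.51 ± 0.15, adjusted p = 0.0234) or mouse 4 at 10 mg/kg/day (-0.45 ± 0.16, adjusted p = 0.047). Srxn1 passed as higher in hCYP2B6-Tg females without treated mouse 3 (1.04 ± 0.36, adjusted p = 0.0306) or treated mouse 4 (0.97 ± 0.37, adjusted p = 0.0472).

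The promoter windows of Gclm and Prdx1 are shown because both hold an ARE core, while Gclm rose and Prdx1 passed the test on unscaled library totals alone among the settings tried. They are from RefSeq (GRCm38.p6, plus strand), at chr3:122245307-122245586 for Gclm and chr4:116685349-116685628 for Prdx1. Capitals mark the match to the ARE core TGACNNNGC, in both on the strand opposite to the gene.
Gclm: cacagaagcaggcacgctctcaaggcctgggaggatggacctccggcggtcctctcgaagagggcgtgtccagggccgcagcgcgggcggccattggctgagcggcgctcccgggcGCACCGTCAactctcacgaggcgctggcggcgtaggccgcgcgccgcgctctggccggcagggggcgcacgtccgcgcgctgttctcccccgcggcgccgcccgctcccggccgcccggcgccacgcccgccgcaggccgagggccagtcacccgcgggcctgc
Prdx1: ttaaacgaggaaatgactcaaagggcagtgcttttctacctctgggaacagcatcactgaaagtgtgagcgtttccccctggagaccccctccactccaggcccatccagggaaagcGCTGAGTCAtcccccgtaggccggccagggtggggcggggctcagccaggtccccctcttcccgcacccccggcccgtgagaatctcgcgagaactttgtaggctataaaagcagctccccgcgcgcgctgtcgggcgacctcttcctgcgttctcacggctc
The match begins at -134 in Gclm, where it overlaps an MRE core match at -138, and at -133 in Prdx1. An ARE core stood in 9 of the 42 windows (21.4%), of 9 genes, and in 12.4% of all windows. Of the 6 NRF2 target enzymes with a window, 4 held one (Gclm, Txnrd1, Srxn1 and Prdx1), of which Gclm and Srxn1 rose. In Srxn1 the match begins at 29, after the start site. None of the 5 mitochondrial antioxidants held one.

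Of 19 tested partners and further targets of NRF2, 11 rose and 1 fell (63.2% changed, against 47.3% of all genes). The efflux pump Abcc1 had 56.8, 72.0 and 100.4 CPM at 10 mg/kg/day and 42.0, 50.5 and 74.5 CPM at 0, and rose by 0.49 ± 0.06 (adjusted p = 1.21e-08). Sqstm1, the autophagy receptor p62, which binds KEAP1, had 448, 812 and 1641 CPM at 10 mg/kg/day and 496, 612 and 733 CPM at 0, and rose by 0.40 ± 0.08 (adjusted p = 0.000151). Biliverdin reductase Blvra, which acts after haem oxygenase, fell by 0.52 ± 0.10 (adjusted p = 3.00e-05). Glutathione and thioredoxin reductases draw on NADPH, and of 9 genes of its supply 4 rose and 1 fell (55.6% changed). Transketolase (Tkt) had 6.50, 24.4 and 161.5 CPM at 10 mg/kg/day and 6.28, 8.70 and 24.8 CPM at 0, and rose by 1.70 ± 0.32 (adjusted p = 4.60e-05). Glucose-6-phosphate dehydrogenase (G6pdx) rose by 1.39 ± 0.23 (adjusted p = 4.86e-06), and the mitochondrial malic enzyme Me3 fell by 0.38 ± 0.08 (adjusted p = 7.42e-05).

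Of the mitochondrial antioxidants, 3 of 5 fell and none rose (60% changed, against 47.3% of all genes). Sod2, on chromosome 17 at 13006846 to 13040063, had 228, 199.9, 198.5 and 206 CPM in hCYP2B6-Tg females at 10 mg/kg/day, against 292, 318, 302 and 282 CPM at 0. It had 228, 200.1, 166 and 233 CPM in hCYP2B6-Tg males at 10 mg/kg/day, against 327, 384, 298, 368 and 294 CPM at 0. Every transgenic mouse at 10 mg/kg/day lay below every one at 0. Sod2 had 199.2, 216, 167.7 and 271 CPM in Cyp2b-null females at 10 mg/kg/day, against 306, 354, 332 and 309 CPM at 0. It had 202, 220.5 and 175 CPM in Cyp2b-null males at 10 mg/kg/day, against 309, 329, 372 and 308 CPM at 0. The Cyp2b-null mice were separated in the same way. Averaged over strata, Sod2 fell by 0.64 ± 0.06 (adjusted p = 8.24e-12), and it passed in each stratum, with log2 fold changes between -0.73 in Cyp2b-null males and -0.52 in hCYP2B6-Tg females.

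Prdx3, the peroxiredoxin of the mitochondrial matrix, had 135.5, 151 and 188 CPM at 10 mg/kg/day and 163.1, 193 and 254 CPM at 0, and fell by 0.35 ± 0.05 (adjusted p = 4.45e-07). Mitochondrial thioredoxin Txn2, which keeps it reduced, had 101.2, 115 and 127.8 CPM at 10 mg/kg/day and 108.95, 133.7 and 163.1 CPM at 0, and fell by 0.20 ± 0.05 (adjusted p = 0.00206). Both overlapped between the doses. Prdx5 was at -0.12 ± 0.06 (adjusted p = 0.0768) and the mitochondrial thioredoxin reductase Txnrd2 at -0.07 ± 0.05 (adjusted p = 0.29). The small changes of this group rest on the scaling. When library totals were used unscaled, the median log2 fold change of all genes was 0.22 higher, and 82.1% of changed genes were higher, against 52.5% with scaling. On that scale Sod2 was at -0.43 ± 0.05, Prdx3 at -0.13 ± 0.04, Txn2 at 0.02 ± 0.05 (adjusted p = 0.681) and Txnrd2 at 0.16 ± 0.05 (adjusted p = 0.0123). With the adipocyte markers as a covariate Sod2 was at -0.50 ± 0.06, Prdx3 at -0.22 ± 0.06 (adjusted p = 0.00175) and Txn2 at -0.08 ± 0.06 (adjusted p = 0.3).

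**Figure D3:**
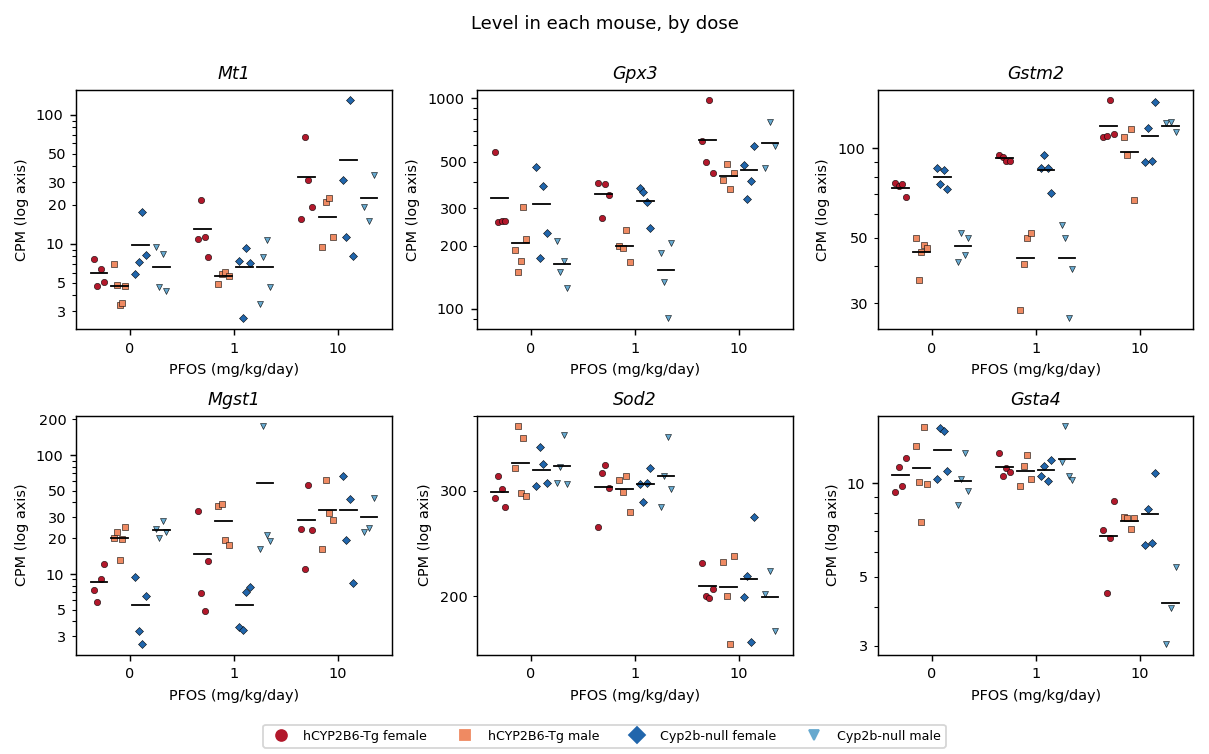
Level of 6 genes in each mouse, in CPM on a log axis, by dose in mg/kg/day and stratum (colour and symbol), with short lines at group means. No mouse at 10 mg/kg/day, with at most 271 CPM of Sod2, reaches the lowest mouse at 0, with 282 CPM.

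Of 11 other antioxidant enzymes, 6 rose and 2 fell (72.7% changed, against 47.3% of all genes). Gpx3, the glutathione peroxidase of plasma, had 629.6, 498, 977 and 442 CPM in hCYP2B6-Tg females at 10 mg/kg/day, against 559, 258, 261 and 261 CPM at 0. It had 410.1, 488, 373 and 440.0 CPM in hCYP2B6-Tg males at 10 mg/kg/day, against 191, 149, 168.2, 304 and 216 CPM at 0. The transgenic females overlapped through 1 mouse at 0, and the males did not overlap. Gpx3 had 484, 334, 407 and 593 CPM in Cyp2b-null females at 10 mg/kg/day, against 472, 175, 382 and 229 CPM at 0. It had 468, 773 and 592 CPM in Cyp2b-null males at 10 mg/kg/day, against 211, 150.4, 169 and 126 CPM at 0. The Cyp2b-null females overlapped and the males did not. Averaged over strata, Gpx3 rose by 1.10 ± 0.14 (adjusted p = 4.43e-08). It passed in 3 strata and was at 0.53 ± 0.28 (adjusted p = 0.22) in Cyp2b-null females. In hCYP2B6-Tg females its call ended without treated mouse 3, the one with 977 CPM (0.64 ± 0.29, adjusted p = 0.0998).

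The other 5 that rose did so by less than Gpx3. Gpx4, which reduces lipid peroxides in membranes, had 190.1, 261 and 295 CPM at 10 mg/kg/day and 186, 213 and 270.5 CPM at 0, and rose by 0.26 ± 0.05 (adjusted p = 9.43e-05). Cytosolic superoxide dismutase Sod1 rose by 0.26 ± 0.07 (adjusted p = 0.00398) and glutathione synthetase Gss by 0.41 ± 0.15 (adjusted p = 0.0205). The endoplasmic reticulum enzymes Gpx7 and Prdx4 rose by 0.28 ± 0.10 (adjusted p = 0.017) and 0.31 ± 0.13 (adjusted p = 0.0392). With the adipocyte markers as a covariate Sod1 was at 0.23 ± 0.09 (adjusted p = 0.0602), Gss at 0.46 ± 0.19 (adjusted p = 0.0609), Gpx7 at 0.25 ± 0.12 (adjusted p = 0.118) and Prdx4 at 0.26 ± 0.16 (adjusted p = 0.221). With the red blood cell covariate Sod1 was at 0.19 ± 0.09 (adjusted p = 0.0923) and Gpx7 at 0.10 ± 0.11 (adjusted p = 0.492), and without the 6 libraries Gpx7 was at 0.19 ± 0.10 (adjusted p = 0.137) and Prdx4 at 0.34 ± 0.15 (adjusted p = 0.0631). The call of Prdx4 ended in 14 of 48 fits that left out 1 library, and that of Gss in 1, without mouse 1 of the Cyp2b-null females at 10 mg/kg/day. With no filter on low counts neither passed, Prdx4 with adjusted p = 0.0788 and Gss with adjusted p = 0.0506. Sod1 lies over Scaf4 and Gss over Acss2 on the opposite strand, so their reads are uncertain in the same way as those of Mt2.

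Prdx2, a cytosolic peroxiredoxin abundant in red blood cells, had 49.0, 60.5 and 78.2 CPM at 10 mg/kg/day and 66.997, 83.3 and 107.3 CPM at 0. It fell by 0.46 ± 0.06 (adjusted p = 1.04e-07), passed in all 4 strata, and was at -0.34 ± 0.07 (adjusted p = 0.000116) with the red blood cell markers as a covariate. In hCYP2B6-Tg males its call ended in 4 of 9 fits that left out 1 library (adjusted p between 0.0676 and 0.124). Prdx6 fell by 0.19 ± 0.05 (adjusted p = 0.00142), and was at -0.12 ± 0.06 (adjusted p = 0.0939) with that covariate and at 0.03 ± 0.05 (adjusted p = 0.701) on unscaled totals. Cytosolic Gpx1 had 21.6, 38.0 and 49.0 CPM at 10 mg/kg/day and 35.8, 44.9 and 65.3 CPM at 0, a log2 difference of -0.24 ± 0.11 (adjusted p = 0.063), and was at -0.30 ± 0.10 (adjusted p = 0.0167) without the 6 libraries. Catalase (Cat) had 51.4, 79.8 and 163.5 CPM at 10 mg/kg/day and 59.8, 88.6 and 127.4 CPM at 0, a log2 difference of -0.02 ± 0.15 (adjusted p = 0.932). Extracellular superoxide dismutase Sod3 was at 0.54 ± 0.24 (adjusted p = 0.0586), and its call depended on the setting in both directions. It passed as higher in DESeq2 (adjusted p = 0.0403), with the replicate block at 0.66 ± 0.23 (adjusted p = 0.0197), on unscaled totals at 0.77 ± 0.26 (adjusted p = 0.0107) and in 8 of 48 fits that left out 1 library. It passed as lower, at -0.47 ± 0.14 (adjusted p = 0.00748), with the adipocyte markers as a covariate.

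Of the 9 glutathione transferases, which join glutathione to electrophiles, 5 rose and 1 fell (66.7% changed, against 47.3% of all genes). Gstm2, on chromosome 3 at 107981702 to 107986453, had 108.96, 109.9, 145 and 111.5 CPM in hCYP2B6-Tg females at 10 mg/kg/day, against 76.4, 74.4, 75.5 and 68.4 CPM at 0. It had 109.2, 95.1, 116.6 and 66.7 CPM in hCYP2B6-Tg males at 10 mg/kg/day, against 49.7, 35.9, 44.8, 47.3 and 46.0 CPM at 0. Every transgenic mouse at 10 mg/kg/day lay above every one of its sex at 0. Gstm2 had 90.2, 116.8, 90.8 and 143.5 CPM in Cyp2b-null females at 10 mg/kg/day, against 86.1, 76.0, 84.4 and 73.0 CPM at 0. It had 121, 123.02 and 113.2 CPM in Cyp2b-null males at 10 mg/kg/day, against 41.5, 52.0, 43.7 and 49.98 CPM at 0. The same held for the Cyp2b-null mice, with a narrow gap in the females. Averaged over strata, Gstm2 rose by 0.91 ± 0.08 (adjusted p = 2.17e-11). It passed in 3 strata and was at 0.47 ± 0.17 (adjusted p = 0.0584) in Cyp2b-null females.

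Gstm1, a neighbour of Gstm2, had 162, 202 and 253 CPM at 10 mg/kg/day and 106.8, 142.3 and 157 CPM at 0, with no overlap, and rose by 0.54 ± 0.07 (adjusted p = 2.48e-08). Gstm5 of the same family was at -0.01 ± 0.07 (adjusted p = 0.89), at 0.20 ± 0.06 (adjusted p = 0.00209) on unscaled totals and at 0.19 ± 0.07 (adjusted p = 0.0269) when adjusted for the adipocyte markers. Genes of the family are alike in sequence, so the split of reads among them is uncertain. Gsta4, which conjugates the lipid peroxidation product hydroxynonenal, had 3.04, 7.09 and 10.8 CPM at 10 mg/kg/day and 7.51, 10.3 and 15.2 CPM at 0, and fell by 0.80 ± 0.10 (adjusted p = 8.38e-09). It passed in all 4 strata, at -1.28 ± 0.22 in Cyp2b-null males and between -0.68 and -0.56 in the other 3. Its call ended in 4 of 8 fits that left out 1 library of the Cyp2b-null females (adjusted p between 0.0508 and 0.0694), in 4 of 9 of the hCYP2B6-Tg males (between 0.0548 and 0.111) and in 1 of 8 of the hCYP2B6-Tg females, without treated mouse 2 (adjusted p = 0.0643).

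The microsomal transferase Mgst3 had 93.0, 141.3 and 166.9 CPM at 10 mg/kg/day and 67.1, 107.5 and 155 CPM at 0, and rose by 0.32 ± 0.06 (adjusted p = 6.95e-05). Mgst1 had 8.37, 24.3 and 66.3 CPM at 10 mg/kg/day and 2.58, 13.1 and 28.1 CPM at 0, and rose by 1.38 ± 0.32 (adjusted p = 0.00059). In Cyp2b-null females at 10 mg/kg/day Mgst1 stood at 66.3, 19.3, 42.9 and 8.37 CPM, and the adipocyte marker sum of the same mice at 1910.1, 483, 1332 and 226 CPM. Adjusted for these markers, Mgst1 was at 0.24 ± 0.31 (adjusted p = 0.604). Gstt1 rose by 0.51 ± 0.20 (adjusted p = 0.0317), and was at 0.14 ± 0.23 (adjusted p = 0.682) with the covariate and at 0.51 ± 0.20 (adjusted p = 0.0748) with no filter, its call ending in 5 of 48 fits that left out 1 library. The highest Mgst1 level, 174 CPM, was in the library with Alb counts, whose adipocyte marker sum was 117.1 CPM. Which cells hold the Mgst1 transcripts was not tested. Gstp1 (-0.01 ± 0.07) and Gstk1 (-0.08 ± 0.06) did not pass the test, and Gstp1 was at 0.22 ± 0.06 (adjusted p = 0.00275) on unscaled totals.

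Of 22 other glutathione genes tested 6 rose and 8 fell, and of 20 other redox proteins 5 rose and 10 fell. These shares were 63.6% and 75%, against 47.3% of all genes. Glutaredoxin (Glrx), which removes glutathione from proteins, had 6.16, 8.85 and 13.6 CPM at 10 mg/kg/day and 14.7, 17.5 and 22.7 CPM at 0, with no overlap, and fell by 1.01 ± 0.07 (adjusted p = 7.80e-15). Glyoxalase Glo1 fell by 0.47 ± 0.06 and Chac2, which degrades glutathione, by 0.57 ± 0.07. The methionine sulfoxide reductases Msra and Msrb2 fell by 0.55 ± 0.06 and 0.90 ± 0.11, and the paraoxonase Pon3 by 0.99 ± 0.10.

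By stratum, at 10 against 0 mg/kg/day, 15 of the 40 genes changed in hCYP2B6-Tg females, against 27.5% of all genes. In hCYP2B6-Tg males 9 changed, against 18.3%. In Cyp2b-null females 10 changed, against 12.5%, and in Cyp2b-null males 11, against 15.6%. Mt1, Sod2, Prdx2 and Gsta4 changed in all 4 strata, each in 1 direction. Of these, Sod2 was called in each stratum whichever of its libraries at 10 or 0 mg/kg/day was left out. Without mouse 2 of the treated hCYP2B6-Tg females 9 genes changed in that stratum. Among hCYP2B6-Tg males, 5 changed without treated mouse 2 and 4 without treated mouse 3. Without mouse 3 of the Cyp2b-null females at 10 mg/kg/day 4 changed, and without mouse 2 or mouse 3 at 0 it was 6 each time. Without mouse 3 of the Cyp2b-null males at 10 mg/kg/day 7 changed. For fits that left out 1 library no share of all genes is given, so these counts cannot be set against all genes.

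**Figure D4:**
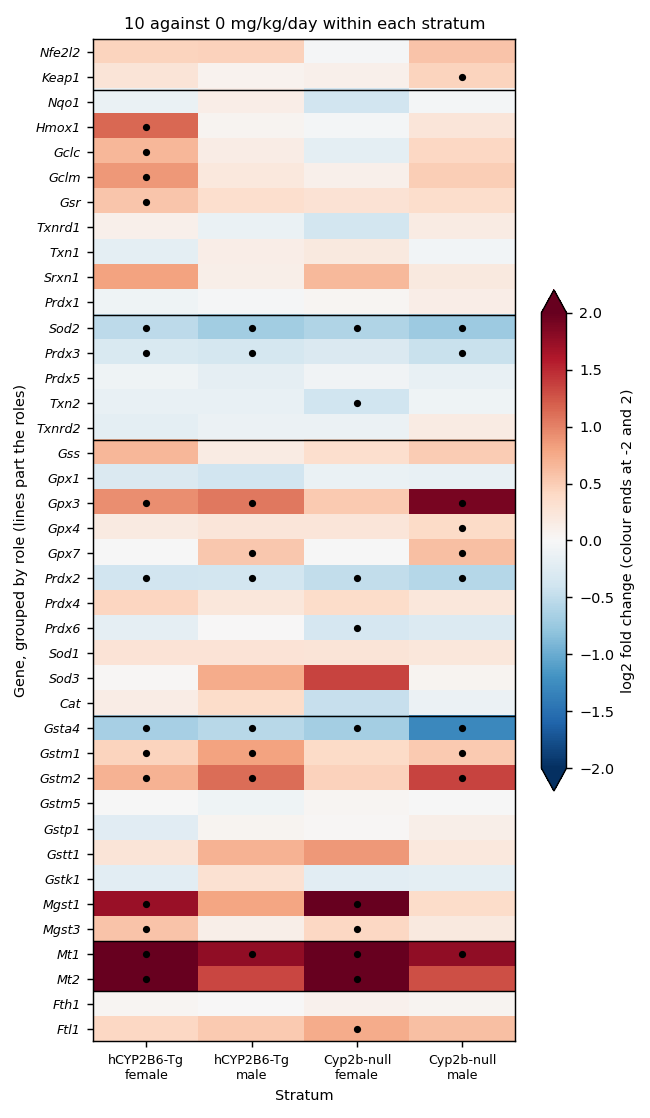
Log2 fold change of each of the 40 genes (rows) at 10 against 0 mg/kg/day in each stratum (columns), as colour (red higher, blue lower at 10), with dots where the adjusted p was under 0.05. The rows of Mt1, Sod2, Prdx2 and Gsta4 are marked in all 4 columns, and NRF2 target enzymes are marked in the hCYP2B6-Tg female column alone.

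None of the 40 genes passed the test of a difference between males and females in the response to 10 mg/kg/day, against 0.135% of all genes. Of the 40, 7 had an unadjusted p under 0.05 in edgeR, as had 1478 of all 15583 genes. DESeq2 called 1 of the 40, Gstm2, and 0.59% of all genes. Gstm2 had log2 fold changes of 1.12 and 1.35 in males and 0.69 and 0.47 in females, a difference of 0.65 ± 0.17 (adjusted p = 0.108), with an adjusted p of 0.0371 in DESeq2. In edgeR it passed without mouse 4 of the Cyp2b-null females (adjusted p = 0.0413) or of the hCYP2B6-Tg males (adjusted p = 0.0417), both treated with 10 mg/kg/day. The difference of Nfe2l2 was 0.29 ± 0.20 (adjusted p = 0.727), and 0.59 ± 0.11 (adjusted p = 0.00474) without mouse 2 of the treated hCYP2B6-Tg females. Between genotypes none of the 40 genes differed in response and no gene did (0%), with 2 of the 40 and 1360 of all genes at an unadjusted p under 0.05 in edgeR. DESeq2 called 0 of the 40 and, of all genes, 1 higher and 2 lower.

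At 0 mg/kg/day, males and females differed in 5 of the 40 genes, against 7.46% of all genes. Gstm2 lay between 35.9 and 52.0 CPM in males and between 68.4 and 86.1 CPM in females, with no overlap, a log2 difference of -0.75 ± 0.12 (adjusted p = 2.09e-05). At 10 mg/kg/day it lay between 66.7 and 123.02 CPM in males and between 90.2 and 145.1 CPM in females, which overlap. Gpx3 was also lower in males, at -0.82 ± 0.19 (adjusted p = 0.00544). Higher in males were Mgst1, at 1.66 ± 0.47 (adjusted p = 0.0211), Mgst3, at 0.64 ± 0.09 (adjusted p = 3.07e-06), and Fth1, at 0.30 ± 0.07 (adjusted p = 0.00286). The genotypes at 0 mg/kg/day differed in none of the 40 genes and in no gene at all (0%), with 0 of the 40 and 519 of all genes at an unadjusted p under 0.05 in edgeR. DESeq2 called 0 of the 40 and, of all genes, 2 higher and 7 lower.

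At 1 against 0 mg/kg/day none of the 40 genes changed, nor did any of all genes in edgeR (0%). Of the 40, 2 had an unadjusted p under 0.05, Gstt1 (0.47 ± 0.20) and Prdx4 (0.29 ± 0.13), as had 568 of all genes. DESeq2 called 0 of the 40 and 1 of all genes, which was lower. At 10 against 1 mg/kg/day 24 of the 40 changed, 15 higher and 9 lower, against 46.6% of all genes. Mt1 was at 1.85 ± 0.29 (adjusted p = 2.09e-06), Gpx3 at 1.11 ± 0.14 (adjusted p = 6.07e-08) and Sod2 at -0.57 ± 0.06 (adjusted p = 1.51e-10), and all 5 mitochondrial antioxidants fell. This comparison shares its mice at 10 mg/kg/day with that to 0.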

How the data were processed

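The authors deposited read counts per gene in a single table of 54532 genes and 48 libraries, and levels here are CPM on TMM-scaled library sizes. The submitters' processing notes list HISAT2 and GRCm39 without version or role, whereas the counting program, annotation and use of strand were not found in the labels. Coordinates in the table are those of GRCm38: 38 of the 40 genes have the same start and end in GENCODE vM21.

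Genes were filtered with filterByExpr, and edgeR's quasi-likelihood test (edgeR 4.0.16, limma 3.58.1, R 4.3.3) had 1 coefficient for each of 12 groups and 36 residual degrees of freedom. Averages give each of the 4 strata equal weight. P-values are two-sided and adjusted by Benjamini-Hochberg over 15583 genes, and they measure the spread between mice. The test was tried on simulated data first. Alternatives were DESeq2 1.42.0, its size factors, library totals without scaling factors, no filter, a CPM of at least 1 in 16 libraries, adipocyte or red blood cell markers as a covariate, a replicate block and leaving out each library. Leaving out 6 libraries together, with at least 1000 counts of Alb or 40 of Glycam1, was chosen after seeing the data. No library looked like a copy: chi-square per degree of freedom was at least 7.24 over 73 pairs within groups. Motifs were searched on both strands of RefSeq promoter windows.

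Members and lists were chosen with earlier results of these data known. Described most fully were 13 genes named in advance and, from each role, up to 3 changed genes with the smallest p at 10 against 0 mg/kg/day, 22 in all. Likewise 3 genes were named from each further list, while Mtf1 and members outside this rule were named as part of their role.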

Additional observations from a re-analysis of the deposited data

Results flagged for a closer look

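In groups of 4 or 5 mice, 13 levels of the 22 genes described most fully stood apart from the rest of their group. A level was marked by its gap to the nearest level relative to the range of its group, so some gaps are small in CPM. In all, 242 groups of values were searched, and chance gives about 5% of them, so 13 is near the number that chance gives.

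Mouse 2 of the hCYP2B6-Tg females at 10 mg/kg/day had 111.895 CPM of Nfe2l2, with the others between 33.2 and 41.7, and 120.289 CPM of Keap1, with the others between 77.5 and 79.2. Mouse 4 of the hCYP2B6-Tg males at that dose had 60.1131 CPM of Nfe2l2, with the others between 43.1 and 43.8. Mouse 4 of the Cyp2b-null females at 1 mg/kg/day had 83.1739 CPM of Keap1, with the others between 74.2 and 75.1.

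Mouse 2 of the Cyp2b-null males at 1 mg/kg/day, the library with Alb counts, had 38.0529 CPM of Gclc and 106.36 CPM of Gpx1, with the others at most at 21.9 and 53.0 CPM. Mouse 3 of the Cyp2b-null females at 10 mg/kg/day, a library with Glycam1 counts, had 7.63684 CPM of Mt2, with the others at most at 1.47. The part of those transcripts in these levels was not tested.

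Among hCYP2B6-Tg males, Nqo1 stood at 32.2508 CPM in mouse 3 at 1 mg/kg/day, Gclm at 32.9933 CPM in mouse 1 at 1 mg/kg/day and at 31.2899 CPM in mouse 2 at 0. Gsta4 was lowest at 7.10501 CPM in mouse 3 at 10 mg/kg/day, with the others between 7.72 and 7.77. Among hCYP2B6-Tg females, Gstm2 stood at 145.079 CPM in mouse 3 at 10 mg/kg/day and Gpx3 at 558.994 CPM in mouse 1 at 0.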

How the results depend on the processing

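At 10 against 0 mg/kg/day over strata, 27 of the 40 genes changed, against 47.3% of all genes. The alternatives gave 19 with the adipocyte covariate (33.8% of all genes) to 32 on unscaled totals (58.6%). The share of all genes was lowest with no filter, at 19.1%, or 6748 of 35310 genes, against 7377 of 15583 with the filter. Shares with no filter below are also of 35310 genes, so they are not on the same base as the others. When single libraries were left out, 23 to 29 of the 40 changed. No share of all genes is given for such fits, here or below. The number of higher genes was 21, and 13 with the adipocyte covariate, 12 of them among the 21 and the other Gstm5. Of all 15583 genes, 3871 were higher, and 2733 with that covariate. In hCYP2B6-Tg males the count of 9 (18.3% of all genes) became 19 on unscaled totals (29.8%), and 5 with no filter (5.48%), with the adipocyte covariate (9.12%) or without the 6 libraries (9.52%). In Cyp2b-null females 10 (12.5%) became 21 on unscaled totals (31.2%), 2 with the adipocyte covariate (5.28%), 6 with the red blood cell covariate (7.31%) and 3 without the 6 libraries (5.31%). In Cyp2b-null males 11 (15.6%) became 7 with the red blood cell covariate (11.9%) and 6 without the 6 libraries (9.60%). Leaving out single libraries gave 9 to 18 in hCYP2B6-Tg females and 4 to 11 in hCYP2B6-Tg males. In Cyp2b-null females it gave 4 to 13 and in Cyp2b-null males 7 to 13. For the difference between sexes in response it gave 0 to 1, and DESeq2 called 1 (0.59% of all genes). Among genes called in either fit, signs turned on unscaled totals for Txn2 (0.0247), Txnrd2 (0.16), Prdx6 (0.0253), Gstm5 (0.20) and Gstp1 (0.22), and with the adipocyte covariate for Sod3 (-0.47) and Gstm5 (0.19). Signs of genes called in neither turned for 5 more on unscaled totals (Nqo1, Txnrd1, Prdx5, Cat and Gstk1) and 4 more with the adipocyte covariate (Txnrd1, Txnrd2, Gstp1 and Gstk1), and for 2 or 3 genes with the replicate block, the red blood cell covariate or without the 6 libraries. The cause was not tested. Replicate numbers did not pair the mice: the median correlation of deviations over 253 pairs of the same number was -0.017. With a replicate block 28 genes changed. Mt2 gave no value under the stricter filter, since its counts are low.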
